A study of Mus musculus with 5 samples.

Results

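Neutrophil granule and calprotectin genes were followed in mouse LSK cells (Lin- Sca1+ cKit+), a sorted bone marrow fraction that holds stem cells and multipotent progenitors. The 10 genes were chosen by name, with earlier results of these data known. Mpo, Elane, Prtn3 and Ctsg belong to the primary granules and Hp, Ltf, Lcn2 and Ngp to later ones. S100a8 and S100a9 are the calprotectin subunits. The 10 genes are listed here by their stage of granule formation. They are 10 of the 24399 genes in the count table, and all 10 passed the filter on low counts. The KO title was on 3 libraries and the WT title on 2, from C57BL/6 mice with a germ line knockout of 1 gene and from wild-type mice, all aged 12 months.

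The titles and the genotype field of the first group did not match: the field gives a heterozygous genotype for all 3 libraries titled KO, which are therefore called KO-labelled here. The series text names heterozygous and homozygous animals beside wild-type ones. Nothing in the labels ties each library to an animal of its own, so p-values reflect only how far these samples vary, and that variation may be technical. With the best-covered transcript of each gene, library totals were 36060320 to 39691066 counts in the KO-labelled libraries and 29964556 and 38674416 in the WT libraries. Cd34, listed here with LSK and stem cell genes but not a marker of the sort, was abundant in both groups. It stood at 1266 ± 108 CPM in KO-labelled libraries, against 1304 ± 106 CPM in WT ones. Kit, which encodes the cKit of the sort, stood at 1126, 1086 and 1144 CPM in the KO-labelled libraries and 1205 and 1227 CPM in the WT libraries. Ly6a, which encodes the Sca1 of the sort, was less abundant. It stood at 97.2, 90.5 and 104.5 CPM in the KO-labelled libraries and 74.9 and 82.0 CPM in the WT libraries. The KO-labelled libraries thus lay below both WT libraries for Kit and above both for Ly6a, and neither gene passed the threshold given below. CPM here means counts per 1000000 of the library total after TMM adjustment for composition. Values after ± are the SD over n = 3 KO-labelled or n = 2 WT libraries unless given as SE.

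As background, a developing neutrophil fills its granules in waves. The primary, or azurophil, granules form first, at the promyelocyte stage, and hold myeloperoxidase and a group of serine proteases. Secondary and tertiary granules follow with proteins such as lactoferrin and lipocalin, while calprotectin, a heterodimer of S100a8 and S100a9 that binds calcium and zinc, accumulates in the cytosol. Transcription of the primary granule genes begins in myeloid progenitors, and MYB, C/EBP, RUNX and ETS family factors such as PU.1 are known activators of granule genes.

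The stretches before the start sites of 5 of these genes are shown because the MYB and C/EBP letters searched divided the primary granule genes from the others with a sequence. Hp had no sequence here. The division was seen first and then used to choose what is shown, so it tests nothing. The 120 bases before each RefSeq start (GRCm38.p6) run 5′ to 3′ in the direction of the gene, with capitals at matches to 5 motifs. On both strands the search took TTNNGNAA for the C/EBP factors, which act as dimers. The letters GAGGAA were taken for ETS factors. For RUNX factors the letters searched were TGTGGT. Those of MYB were NAACNG, where the first base had to be cytosine or thymine and the fifth guanine or thymine. TATAA was searched on the forward strand within 45 bases of the start.
Prtn3, chr10:79879547-79879666, plus strand: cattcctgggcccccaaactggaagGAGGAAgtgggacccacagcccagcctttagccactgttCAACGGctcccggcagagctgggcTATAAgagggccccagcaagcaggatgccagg
Elane, chr10:79886192-79886311, plus strand: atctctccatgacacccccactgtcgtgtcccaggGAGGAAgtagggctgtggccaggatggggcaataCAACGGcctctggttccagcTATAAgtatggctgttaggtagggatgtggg
Ctsg, chr14:56102575-56102694, minus strand: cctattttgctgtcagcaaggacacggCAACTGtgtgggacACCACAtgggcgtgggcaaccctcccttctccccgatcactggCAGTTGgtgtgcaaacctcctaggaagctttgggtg
Ngp, chr9:110419688-110419807, plus strand: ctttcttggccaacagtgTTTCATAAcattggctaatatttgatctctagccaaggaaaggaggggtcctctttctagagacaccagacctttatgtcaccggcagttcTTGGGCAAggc
S100a8, chr3:90668951-90669070, plus strand: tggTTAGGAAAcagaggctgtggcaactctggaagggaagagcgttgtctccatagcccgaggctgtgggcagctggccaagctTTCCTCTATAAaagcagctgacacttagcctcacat

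Prtn3 and Elane, which neighbour each other, carried the ETS, MYB and TATA letters in the same order and at similar distances. These began 95, 56 and 32 bases before the start of Prtn3 and 85, 51 and 31 bases before that of Elane. This order was noticed in these promoters first and then counted: of all 32851 promoters in the table, 0.0396% held it on the forward strand, which describes its frequency and tests nothing. Over the 250 bases before the start, the MYB letters were found in Mpo, Elane, Prtn3 and Ctsg and the C/EBP letters in Ltf, Lcn2, Ngp, S100a8 and S100a9. None of the 9 members with a sequence had both. Among all promoters, 23.7% held the MYB letters, 36.8% the C/EBP letters and 9.81% both. The ETS letters were found in 7 of the 9, against 23.3% of all promoters, and the RUNX letters in 2 of the 9, Ctsg and S100a9, against 14% of all. The TATA letters were found in 3 of the 9, Elane, Prtn3 and S100a8, against 4.59%. Where a match lies on the reverse strand, the capitals show its reverse complement, as TTCCTC for the ETS letters of S100a8. Mpo had ETS letters that began 247 and 224 bases before its start and MYB letters at 166 bases, all farther out than in the Prtn3 and Elane promoters. Ltf had C/EBP letters at 217 and 75 bases, Lcn2 at 216 bases and S100a9 at 236 and 130 bases. Ngp, with 3, at 138, 102 and 11 bases, had the most C/EBP matches of the 9. No match overlapped one to another motif in these 9 promoters, and a match of letters is not evidence of a bound site. Nor is a missing match evidence against a site, since the letters searched are strict.

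All 10 genes were lower in the KO-labelled libraries, and 5 of them fell past the threshold. Those 5 were the proteases Prtn3 and Ctsg, haptoglobin, Hp, and both calprotectin subunits, each 1.59-fold to 1.90-fold lower. None rose. The threshold was an adjusted p of 0.05 in edgeR's quasi-likelihood test over 14565 genes. Of all tested genes, 1.18% passed it in the lower direction and 0.79% in the higher. In all 10 genes the highest KO-labelled library lay below the lower WT library, as it did in 16.3% of tested genes. The median log2 fold change was -0.74 over the 10 genes and 0.001 over all tested genes. Because the 10 genes were chosen with earlier results of these data known, these comparisons describe the set and test nothing. In these bulk samples, fewer cells of a type and less RNA per cell cannot be told apart.

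**Figure D1:**
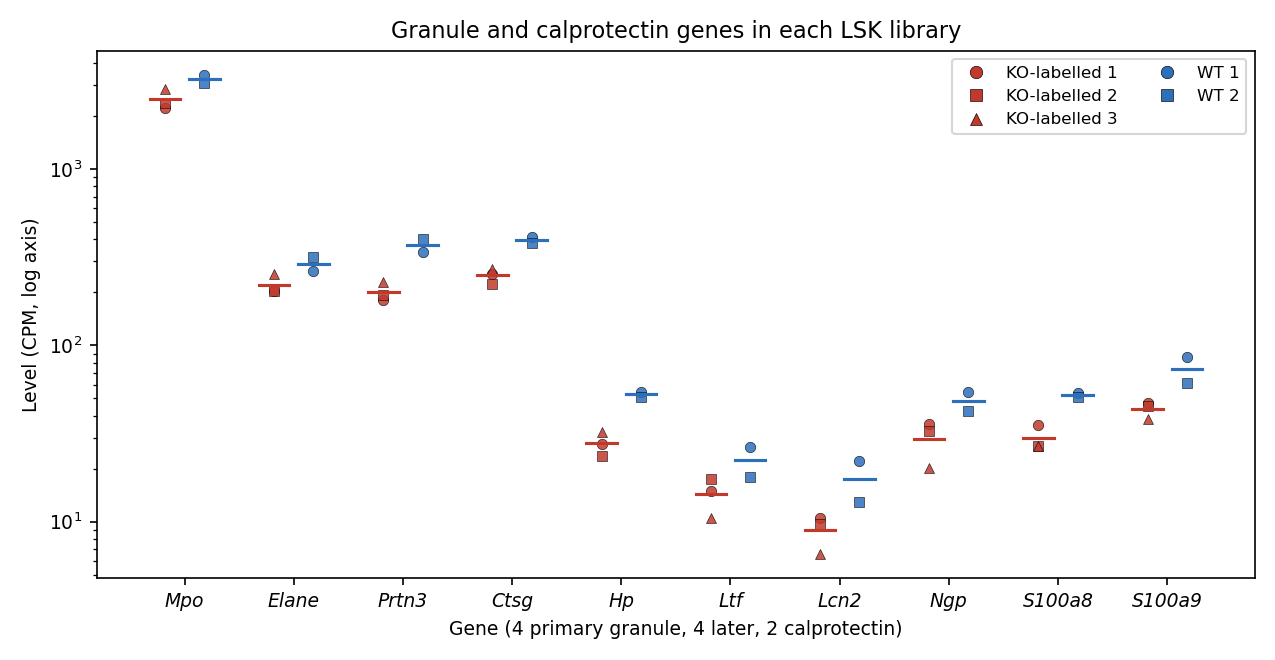
Level of each of the 10 genes in CPM on a log axis, with 1 point per library and a line at the group mean, KO-labelled libraries in red and WT libraries in blue. For every gene the 3 KO-labelled points lie below both WT points, with the narrowest gaps for Ltf and Elane.

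The calls depended on having both WT libraries. With either left out, a single WT sample remained, assumed to vary like the others. Calls were then lost among the 10 genes and over all tested genes alike, although all 10 kept a fold change below 0. Without KO library 1, 8 of the 10 passed, among 675 calls over 14373 tested genes. Without KO library 3, 4 of the 10 passed, among 135 calls over 14333 tested genes. In that fit S100a8 (log2 fold change -0.75, adjusted p = 0.0535) and S100a9 (-0.66, adjusted p = 0.0879) were lost and Mpo was gained. With either WT library left out, the log2 fold changes were -0.99 and -0.76 for Prtn3, -0.61 and -0.72 for Ctsg, -0.87 and -0.97 for Hp, -0.78 and -0.86 for S100a8, and -0.49 and -0.97 for S100a9, where the first value of each pair lacks WT library 1 and the next lacks WT library 2. Across the 14 alternative settings the adjusted p ran from 6.92e-05 to 0.273 for S100a8 and from 0.000444 to 0.457 for S100a9.

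Of the 4 primary granule genes, the proteases Prtn3 and Ctsg fell, while Elane and Mpo were lower by less and did not pass. Mpo encodes myeloperoxidase, the haem enzyme that makes hypochlorous acid, and was the most abundant member. It stood at 2219, 2386 and 2869 CPM in KO-labelled libraries 1 to 3, against 3443 and 3103 CPM in WT libraries 1 and 2. The groups did not overlap, but the highest KO-labelled value was 92.5% of the lower WT value, and the log2 fold change of -0.39 ± 0.10 (SE) missed the threshold (adjusted p = 0.0747).

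Elane encodes neutrophil elastase. It stood at 203, 203 and 255 CPM in the KO-labelled libraries and 265 and 316 CPM in the WT libraries, with KO library 3 close to WT library 1. The log2 fold change was -0.40 ± 0.11 (SE, adjusted p = 0.113). Mpo and Elane thus had differences of about the same size, 1.31-fold and 1.32-fold lower.

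Prtn3, proteinase 3, had the smallest p of the 10 genes. It stood at 182, 192 and 228 CPM in the KO-labelled libraries, against 340 and 401 CPM in the WT libraries. Its highest KO-labelled value was 67.2% of its lower WT value. The log2 fold change was -0.88 ± 0.11 (SE, adjusted p = 0.00134), and the gene ranked 20 among all tested genes by p.

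Ctsg, cathepsin G, stood at 254, 223 and 271 CPM in the KO-labelled libraries and 411 and 381 CPM in the WT libraries. The groups were well apart, at 71.1% between the nearest libraries, with a log2 fold change of -0.67 ± 0.09 (SE, adjusted p = 0.00328). Prtn3, Ctsg and Hp passed in 12 of the 14 alternative settings, all but the 2 that left out a WT library.

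**Figure D2:**
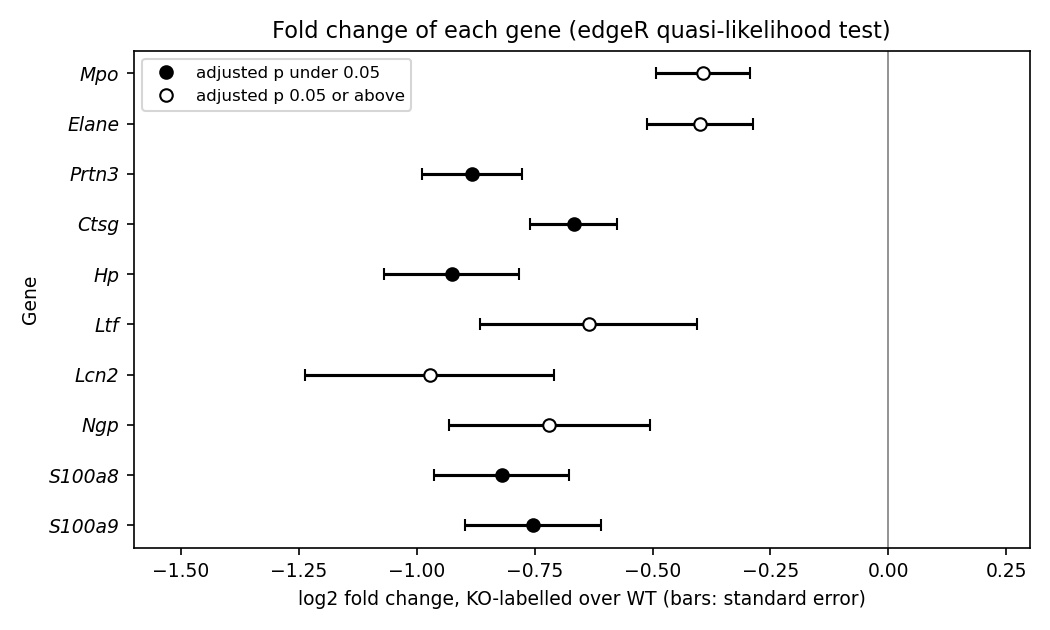
log2 fold change of each gene, KO-labelled over WT, with bars of 1 standard error from edgeR's quasi-likelihood test. Filled points passed an adjusted p of 0.05 (Prtn3, Ctsg, Hp, S100a8 and S100a9), and open points did not. All 10 lie below 0, from -0.39 for Mpo to -0.97 for Lcn2.

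Hp encodes haptoglobin, which binds free haemoglobin and is stored in neutrophil granules. It stood at 27.7, 23.4 and 32.2 CPM in the KO-labelled libraries, against 54.5 and 51.1 CPM in the WT libraries. The WT values lay close together and well above the others, and Hp fell 1.90-fold (log2 fold change -0.93 ± 0.14 SE, adjusted p = 0.00541). Of the 10 genes it had the widest gap between groups, with the highest KO-labelled library at 63.0% of the lower WT library.

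The other 3 later granule genes were lower but spread widely, and none passed. Ltf, lactoferrin, which binds iron, stood at 15.0, 17.5 and 10.5 CPM in the KO-labelled libraries and 26.5 and 18.0 CPM in the WT libraries (log2 fold change -0.63 ± 0.23 SE, adjusted p = 0.226). Lcn2, the lipocalin that binds bacterial siderophores, stood at 10.5, 9.75 and 6.56 CPM in the KO-labelled libraries and 22.1 and 12.9 CPM in the WT libraries (log2 fold change -0.97 ± 0.26 SE, adjusted p = 0.0948). Ngp, neutrophilic granule protein of the secondary granules, stood at 35.7, 32.6 and 20.3 CPM in the KO-labelled libraries and 54.6 and 42.6 CPM in the WT libraries (log2 fold change -0.72 ± 0.21 SE, adjusted p = 0.145). In all 3 genes KO library 3 was the lowest library and WT library 1 the highest.

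Lcn2 had the largest fold change of the 10 genes and did not pass. Its lowest count was 259, in KO library 3. Of these 3 genes, Lcn2 passed in 4 of the 14 alternative settings, Ngp in 3 and Ltf in 0.

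Both calprotectin subunits fell. S100a8 stood at 35.5, 27.0 and 26.9 CPM in the KO-labelled libraries, against 54.0 and 51.2 CPM in the WT libraries (log2 fold change -0.82 ± 0.14 SE, adjusted p = 0.00959). S100a9 stood at 47.0, 45.5 and 38.3 CPM in the KO-labelled libraries, against 85.7 and 61.4 CPM in the WT libraries (log2 fold change -0.75 ± 0.14 SE, adjusted p = 0.0174). The WT libraries of S100a8 lay close together, whereas WT library 1 was well above WT library 2 for S100a9. The sum of both was 73.4 ± 8.71 CPM in KO-labelled libraries, against 126 ± 19.1 CPM in WT ones.

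The order of the KO-labelled libraries differed between genes and did not follow the stages, since Hp went with the primary granule genes. KO library 3 had the highest level among the KO-labelled libraries for Mpo, Elane, Prtn3, Ctsg and Hp, and the lowest for Ltf, Lcn2, Ngp, S100a8 and S100a9. For S100a8 it was nearly level with KO library 2, at 26.9 against 27.0 CPM. Relative to the WT mean, KO library 3 stood at -0.19 for Mpo and Elane on the log2 scale, but at -1.09 for Ltf, -1.26 for Ngp and -1.42 for Lcn2. Without Hp, the later genes Ltf, Lcn2 and Ngp together made 21.4, 19.9 and 10.3 CPM for each 1000 CPM of the 4 primary granule genes in KO-labelled libraries 1 to 3, against 23.2 and 17.5 in the WT libraries. On this measure the groups overlapped, and KO library 3 stood below the other 4 libraries.

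**Figure D3:**
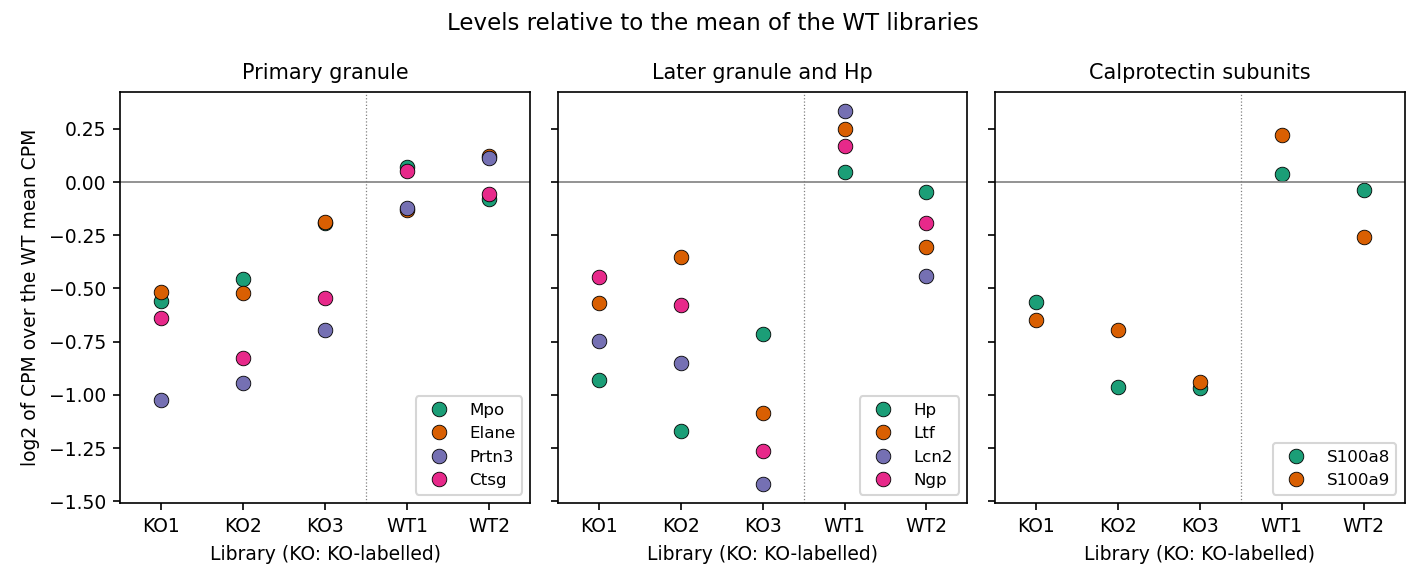
log2 of the CPM of each gene over the mean of the WT libraries, by library, for the primary granule genes, the later genes with Hp, and the calprotectin subunits. KO library 3 is the nearest of the KO-labelled libraries to WT for Mpo and Elane, at -0.19, and the farthest for Ltf, Ngp and Lcn2, at -1.09 to -1.42.

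To compare genes with each other, CPM was divided by transcript length in kilobases, with lengths from the matching GENCODE transcripts. In the KO-labelled libraries Mpo led at 906 ± 123 CPM per kb, followed by Ctsg (249 ± 24.3), Elane (224 ± 30.4) and Prtn3 (196 ± 23.9). S100a9 (84.0 ± 8.93) and S100a8 (61.3 ± 10.2) came next, then Ngp (24.2 ± 6.68), Hp (20.6 ± 3.25), Lcn2 (9.75 ± 2.27) and Ltf (5.22 ± 1.29). Over the 3 libraries Ctsg overlapped with Elane, Elane with Prtn3, and Ngp with Hp, while the other neighbours in this order did not overlap.

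In the WT libraries the order was the same but for Prtn3, which stood above Elane there: Mpo 1190 ± 87.4, Ctsg 396 ± 21.0, Prtn3 361 ± 41.7 and Elane 295 ± 36.9 CPM per kb. S100a9 (142 ± 33.1), S100a8 (108 ± 4.0), Ngp (39.8 ± 6.94), Hp (39.2 ± 1.79), Lcn2 (19.2 ± 7.11) and Ltf (8.12 ± 2.19) followed. The neighbours Ctsg and Prtn3 overlapped between libraries, as did Ngp and Hp. The 10 genes together took 0.304%, 0.313% and 0.374% of the counts in the KO-labelled libraries and 0.476% and 0.449% in the WT libraries. Mpo made up 75.0 ± 1.61% of the summed CPM of the 10 genes in KO-labelled and 71.2 ± 1.75% in WT libraries, without overlap.

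Prtn3 and Elane, adjacent genes on chromosome 10 that encode related proteases, stood in a different ratio in the groups. Per kilobase, the level of Prtn3 was 0.859, 0.912 and 0.861 of that of Elane in the KO-labelled libraries, against 1.23 and 1.22 in the WT libraries. The ratios within a group differed by little and the groups did not overlap. This pair was chosen after the values were seen, so the difference was not tested. The level of Prtn3 over that of Mpo was 0.217 ± 0.00307 in KO-labelled and 0.306 ± 0.0575 in WT libraries, without overlap, and that of Elane over Mpo was 0.247 ± 0.00941 in KO-labelled and 0.250 ± 0.0493 in WT libraries, with overlap. The level of Ctsg over that of Elane was 1.12 ± 0.0971 in KO-labelled and 1.36 ± 0.240 in WT libraries and overlapped between groups. That of S100a8 over S100a9 was 0.730 ± 0.0889 in KO-labelled and 0.781 ± 0.154 in WT libraries and overlapped too.

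**Figure D4:**
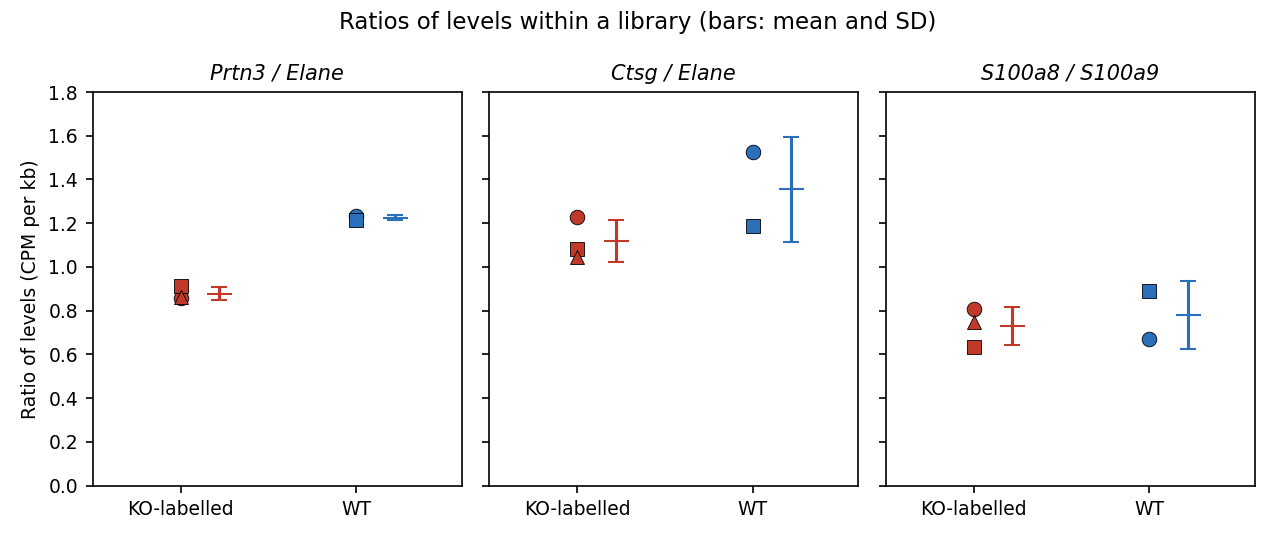
Ratio of levels in CPM per kb within each library for Prtn3 over Elane, Ctsg over Elane and S100a8 over S100a9, with 1 point per library and bars for the mean and SD. For Prtn3 over Elane the KO-labelled libraries lie at 0.859 to 0.912 and the WT libraries at 1.22 and 1.23, while the groups overlap in the other 2 panels.

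Most genes beside the members on their chromosomes were not called. The 3 nearest protein-coding genes on each side of each member locus came to 48 genes, of which 34 were tested with a median log2 fold change of -0.02. Of these, 1 passed, Plppr3, a gene of the phospholipid phosphatase-related family next to Prtn3, against 1.97% of all tested genes called in either direction. Plppr3 stood at 66.8 ± 14.8 CPM in KO-labelled libraries, against 112 ± 4.29 CPM in WT ones (log2 fold change -0.75 ± 0.16 SE, adjusted p = 0.0367). It lies on the opposite strand and a GENCODE transcript of Prtn3 overlaps it. Whether the counting used strand is not given in the sources used here, so reads from the pair may not be separable. Among the neighbours of the calprotectin genes, S100a6 had a log2 fold change of -0.09 ± 0.23 (SE, adjusted p = 0.912).

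In edgeR's test no other granule gene of the lists passed. Of 15 tested further genes of primary granules, which include lysosomal enzymes and granule packing proteins, 0 fell and 0 rose, and the median log2 fold change was -0.11. Of these, 12 had a fold change below 0, and 7 had all KO-labelled libraries below both WT libraries, against 16.3% of all tested genes. The list summed to 2323 to 2436 CPM in KO-labelled libraries, against 2602 to 2651 CPM in WT ones. The most abundant were Srgn, the proteoglycan serglycin that packs proteases, at 559 ± 18.4 CPM in KO-labelled libraries, against 648 ± 9.07 CPM in WT ones (log2 fold change -0.21 ± 0.07 SE), which stood apart without a call, and the lysosomal mannosidase Man2b1 (-0.22 ± 0.08 SE). Prss57, another serine protease of these granules, had a log2 fold change of -0.33 ± 0.13 (SE, adjusted p = 0.281), and Ctsc, which activates granule serine proteases, one of -0.05 ± 0.10 (SE, adjusted p = 0.898). Both were named after their values were seen. Of 16 tested secondary and tertiary granule genes, 0 passed, with a median of -0.36. Among them 12 had a fold change below 0, and 6 had all KO-labelled libraries below both WT libraries. That list summed to 227 to 277 CPM in KO-labelled libraries, against 293 to 307 CPM in WT ones. The integrin chain Itgam stood at 59.7 ± 24.0 CPM in KO-labelled libraries, against 94.0 ± 3.35 CPM in WT ones (log2 fold change -0.65 ± 0.32 SE, adjusted p = 0.456), and its partner Itgb2 had a log2 fold change of -0.08 ± 0.11 (SE).

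Chil3, a chitinase-like protein of secondary granules, was named after its values were seen. It stood at 11.8, 5.91 and 5.29 CPM in the KO-labelled libraries and 18.9 and 16 CPM in the WT libraries (log2 fold change -1.18 ± 0.31 SE, adjusted p = 0.0838). It did not pass in edgeR's test but did in DESeq2 and in limma with sample weights. Camp, the cathelicidin gene, stood at 6.01 ± 1.62 CPM in KO-labelled libraries, against 10.8 ± 0.223 CPM in WT ones (log2 fold change -0.84 ± 0.26 SE, adjusted p = 0.157), and was also named after its values were seen. Mmp8 of the same list, named likewise, lay the other way. It stood at 3.39 ± 2.01 CPM in KO-labelled libraries, against 1.37 ± 0.521 CPM in WT ones, without overlap. Its log2 fold change was 1.31 ± 0.55 (SE, adjusted p = 0.307).

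The genes of a list of protease inhibitors, not all of which act on the granule serine proteases, showed no common direction. Of 11 tested, 0 passed, 5 had a fold change below 0 and the median was 0.06. Serpinb1a, an inhibitor of elastase, proteinase 3 and cathepsin G, stood at 241 ± 14.4 CPM in KO-labelled libraries, against 264 ± 19.95 CPM in WT ones (log2 fold change -0.13 ± 0.09 SE). Cst3, cystatin C, stood at 248 ± 25.1 CPM in KO-labelled libraries, against 195 ± 7.18 CPM in WT ones (log2 fold change 0.35 ± 0.10 SE, adjusted p = 0.104). Over the primary granule, later granule and inhibitor lists, 42 genes were tested, with 10 lower and 4 higher at an unadjusted p of 0.05, where 13.8% of all tested genes passed in either direction. DESeq2 called 1 lower and 2 higher, and limma with sample weights 2 lower and 1 higher.

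**Figure D5:**
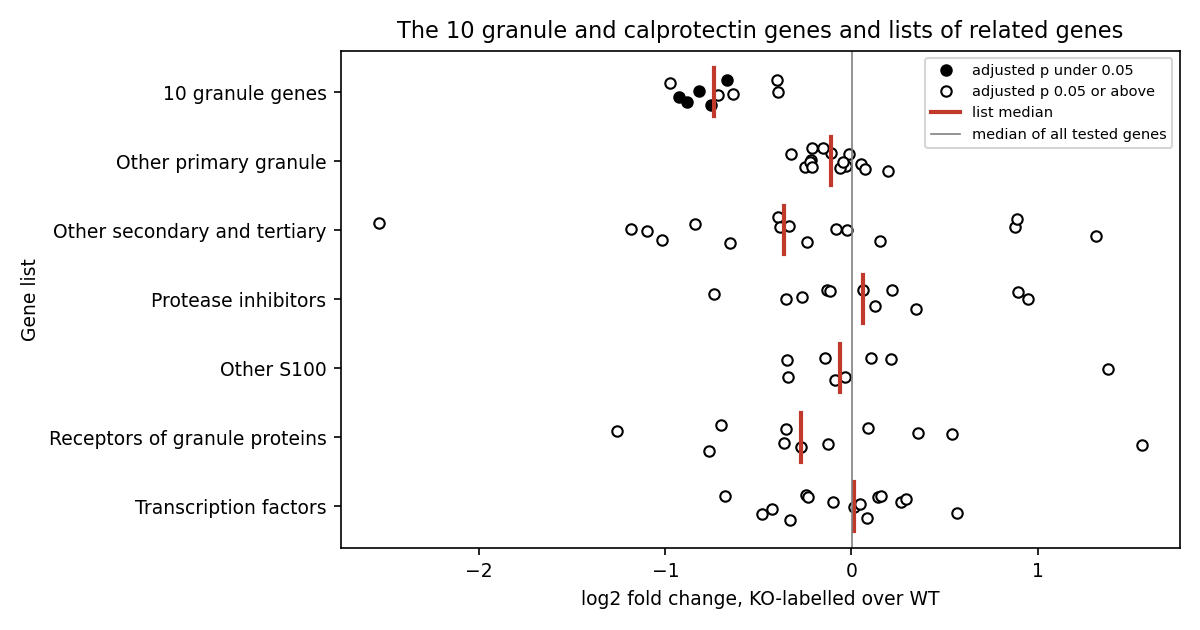
log2 fold change of the 10 genes and of the tested genes of 6 related lists, KO-labelled over WT, with red lines at list medians and a grey line at the median of all tested genes. The 10 genes have a median of -0.74, the list medians lie between -0.36 and 0.06, and the filled points that passed are all among the 10 genes.

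None of the other S100 genes passed in edgeR's test (8 tested, 0 at an unadjusted p of 0.05, median -0.06). The 2 most abundant were S100a10, a partner of annexin, with a log2 fold change of 0.21 ± 0.11 (SE), and S100a11, with one of -0.14 ± 0.13 (SE). Neither DESeq2 nor limma with sample weights called any of these 8 genes. Receptors of granule proteins held 0 calls among 11 tested genes and 4 at an unadjusted p of 0.05 (median -0.27). DESeq2 called 1 lower and 1 higher of these receptors, and limma with sample weights 1 lower. Bsg, basigin, had a log2 fold change of 0.09 ± 0.09 (SE), and Emb, embigin, a receptor of S100a8 and S100a9, one of -0.36 ± 0.10 (SE, adjusted p = 0.0958).

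Transcription factors known to act on granule genes held 0 calls among 15 tested in edgeR's test and 4 at an unadjusted p of 0.05, with a median of 0.01, and 0 in DESeq2 and in limma with sample weights. Myb, the most abundant, stood at 763, 833 and 864 CPM in the KO-labelled libraries and 748 and 721 CPM in the WT libraries (log2 fold change 0.16 ± 0.08 SE, adjusted p = 0.406). Cux1 had a log2 fold change of 0.08 ± 0.18 (SE). Of the factors named here for the motifs above, after their values were seen, Spi1, which encodes the ETS factor PU.1, stood at 62.4, 77.2 and 75.8 CPM in the KO-labelled libraries and 89.5 and 90.8 CPM in the WT libraries (log2 fold change -0.33 ± 0.11 SE, adjusted p = 0.189). Runx1 stood at 177, 195 and 217 CPM in the KO-labelled libraries and 233 and 232 CPM in the WT libraries (log2 fold change -0.24 ± 0.09 SE, adjusted p = 0.268). The groups did not overlap for either gene, as for 16.3% of all tested genes in this direction, and neither passed. Among the C/EBP genes, Cebpa, which drives myeloid commitment, stood at 56.7 ± 3.15 CPM in KO-labelled libraries, against 56.2 ± 2.97 CPM in WT ones. Cebpe, which is needed for secondary granules, stood at 2.70 ± 1.63 CPM in KO-labelled libraries, against 2.62 ± 0.161 CPM in WT ones. Cebpb stood at 2.53 ± 0.450 CPM in KO-labelled libraries, against 4.05 ± 1.25 CPM in WT ones (log2 fold change -0.68 ± 0.39 SE, adjusted p = 0.490). Cebpd stood at 3.30 ± 0.744 CPM in KO-labelled libraries, against 4.43 ± 0.607 CPM in WT ones (log2 fold change -0.43 ± 0.35 SE, adjusted p = 0.659). The groups did not overlap for Cebpb and Cebpd, which did not pass, and overlapped for Cebpa and Cebpe.

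Summed levels of 3 myeloid marker lists were lower in the KO-labelled libraries too, without overlap. The same held for the sums of the megakaryocyte, T and NK cell, and receptor lists. The 3 myeloid lists are not separate, since Csf3r, Csf1r and Ly6c2 are each on more than a single one of them. Of 12 granulocyte-monocyte progenitor genes, Csf2rb, the common beta subunit of the GM-CSF and IL-3 receptors (49.4 ± 5.98 CPM in KO-labelled libraries, against 104 ± 2.89 CPM in WT ones), and Csf3r, the G-CSF receptor, fell, and Ly6c2 rose. The summed level of the list was 1011 to 1051 CPM in KO-labelled libraries, against 1112 to 1301 CPM in WT ones. Of 12 tested mature neutrophil genes, Csf3r fell and no other passed, and 11 had a fold change below 0. That list summed to 180 to 187 CPM in KO-labelled libraries, against 230 to 264 CPM in WT ones, most of it Csf3r. Mmp9, a gelatinase, stood at 2.04 ± 0.490 CPM in KO-labelled libraries, against 4.14 ± 1.08 CPM in WT ones (log2 fold change -1.02 ± 0.41 SE, adjusted p = 0.284), and was named after its values were seen. Other genes of the list were detected at low levels. Cxcr2, the chemokine receptor, stood at 4.64 ± 2.36 CPM in KO-labelled libraries, against 7.71 ± 0.701 CPM in WT ones, with overlap (adjusted p = 0.419). Trem3 stood at 6.59 ± 1.66 CPM in KO-labelled libraries, against 10.5 ± 0.692 CPM in WT ones (adjusted p = 0.268). Clec4e, a C-type lectin receptor, stood at 28.6 ± 5.63 CPM in KO-labelled libraries, against 37.9 ± 3.25 CPM in WT ones (adjusted p = 0.298). Cxcr2, Trem3 and Clec4e were also named after their values were seen. Il1r2 of the same list lay the other way, with a log2 fold change of 0.24 ± 0.70 (SE). The list's genes Il1b, Fpr1 and Fpr2, which mature neutrophils express, did not exceed 0.90 CPM in any library, and Ly6g was not analysed here.

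Of 14 monocyte and macrophage genes, F13a1 and Ms4a6c fell and Ly6c2 rose, with a sum of 334 to 389 CPM in KO-labelled libraries, against 403 to 443 CPM in WT ones. The erythroid markers that passed moved the other way: 7 of 15 rose and 0 fell. Among them were Ermap (57.0 ± 7.82 CPM in KO-labelled libraries, against 24.9 ± 6.66 CPM in WT ones), Gfi1b and Car1. The list summed to 1370 to 1764 CPM in KO-labelled libraries, against 1037 to 1181 CPM in WT ones, most of it Car2. Of the 15, 3 had a fold change below 0. Tfr2 had all KO-labelled libraries below both WT libraries without passing (log2 fold change -0.315 ± 0.098 SE, adjusted p = 0.151). Megakaryocyte genes summed to 830 to 1187 CPM in KO-labelled libraries, against 1250 to 1448 CPM in WT ones, and 3 of 10 fell, Itga2b, Selp and Gp1ba. The list was mixed, with 6 of the 10 at a fold change below 0. Pf4 (log2 fold change 0.79 ± 0.26 SE) and Ppbp (1.46 ± 0.57 SE) had all KO-labelled libraries above both WT libraries, without passing. Whether a change in the mix of cells plays a part in the lower granule genes was not tested.

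Lymphoid, dendritic and mast cell lists held 2 calls in all. Of 11 B cell genes 0 passed, and their sum was 598 to 912 CPM in KO-labelled libraries, against 707 to 742 CPM in WT ones, most of it Dntt. Of 13 T and NK cell genes Klrb1c fell, with a sum of 178 to 211 CPM in KO-labelled libraries, against 217 to 223 CPM in WT ones. Of 9 dendritic cell genes 0 passed, with sums of 663 to 943 CPM in KO-labelled libraries, against 766 to 836 CPM in WT ones, most of it Flt3. The median log2 fold change of these 9 was 0.40, and in 6 of them all KO-labelled libraries lay above both WT libraries, as in 16.5% of tested genes. Xcr1, a receptor of cross-presenting dendritic cells, stood at 11.3 ± 3.27 CPM in KO-labelled libraries, against 4.96 ± 0.249 CPM in WT ones (log2 fold change 1.19 ± 0.29 SE, adjusted p = 0.0574). Tcf4 lay the other way, with all KO-labelled libraries below both WT libraries (log2 fold change -0.33 ± 0.11 SE, adjusted p = 0.171). Xcr1 and Tcf4 were named after their values were seen. DESeq2 and the fit with no count filter each called 2 of the 9 higher. Of 11 genes of mast cells, basophils or eosinophils, Il1rl1 rose, with sums of 304 to 398 CPM in KO-labelled libraries, against 307 to 318 CPM in WT ones. The 12 LSK and stem cell genes held 0 calls and summed to 4594 to 4806 CPM in KO-labelled libraries, against 4702 to 4745 CPM in WT ones.

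KO library 1 differed from the other libraries in a trend with transcript length: the rank correlation across genes between a gene's deviation and its transcript length was -0.24 in that library and 0.03 to 0.10 in the other 4. With an offset for length, the same 5 granule and calprotectin genes passed.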

How the data were processed

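LSK cells were sorted from bone marrow and libraries made with a stranded mRNA kit, per the labels' protocols. The authors deposited raw read counts for 33862 RefSeq transcripts. The submitters' processing notes name STAR, featureCounts of Subread 1.4.5-p1 and mm9 (NCBIM37). Their settings are not given here in any source, strand use and multi-mapping included. Titles set the groups. The targeted gene is not reported here.

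RefSeq and GENCODE tables of GRCm38 named all but 189 transcripts, which hold 0.362% to 0.459% of counts. The transcript with the most counts was kept for each gene; the 2 transcripts of S100a9 had equal counts. After filterByExpr and TMM scaling, genes were tested in R 4.3.3 by the robust two-sided quasi-likelihood test of edgeR 4.0.16, with Benjamini-Hochberg adjustment over all tested genes and a threshold of 0.05. The common coefficient of variation was 18.9%. The script was tested on simulated data. Depth put 3 counts at 0.076 to 0.1 CPM, and the lowest count of a member was 259. Promoters came from RefSeq (GRCm38.p6) and matched 9 of 10 members, all but Hp. No coordinates of the deposited build are given. Python 3.11.15 was used for the other steps.

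All 10 members are named. Of each related list the genes past the threshold are named, or else the 2 most abundant, and of each marker list up to 3. Other genes were named after their values were seen. Members and lists were chosen with earlier results of these data known. Alternatives were DESeq2 1.42.0, limma 3.58.1 with sample weights, other scalings, no filter, summed transcripts, a length offset, leaving out each library in turn and a replicate block.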

Additional observations from a re-analysis of the deposited data

How the results depend on the processing

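In all 14 alternative settings the 10 genes kept a fold change below 0, and 0 of them rose. The number that fell, 5 by edgeR with TMM scaling, was 8 with no count filter, 9 with DESeq2 and 8 with weighted limma, and ranged from 0 to 8 with 1 library left out. The 42 related granule and inhibitor genes held 0 calls in the first fit. With no count filter 1 was lower and 2 higher, with DESeq2 1 and 2, with weighted limma 2 and 1, and with the length offset 1 and 1. Leaving out 1 library gave 0 to 4 lower and 0 to 2 higher ones. Over all genes 287 changed, against 455 with no count filter, 575 with DESeq2 and 567 with weighted limma, and 6 to 675 with 1 library left out. The cause of these differences was not tested, except that leaving out a WT library leaves 1 WT sample. Under a replicate block, 160 of all genes, 7 of the 10 genes and 1 related granule gene (lower) passed. The labels do not say that the numbers pair libraries, and deviations from the group means of same-numbered libraries correlated across genes at 0.043 and 0.017. The lowest count of a member was 259, for Lcn2, and the number of libraries, 3 and 2, limits the precision of every gene.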
